A study of Mus musculus with 24 samples.

Results

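Hepatic endothelial cells (ECs) of mice whose hepatic stellate cells (HSCs) could no longer make bone morphogenetic protein 9 (encoded by Gdf2) and BMP10 were compared with ECs of control mice, over all genes of the deposited count table. The comparison used 6 of the 24 libraries of the series, chosen by their labels as EC libraries of the Bmp9/10-HSC-KO and control genotypes: 3 from Gdf2/Bmp10 HSC-KO mice and 3 from control mice. Gdf2/Bmp10 HSC-KO mice were animals with Lrat-Cre and floxed alleles of both ligand genes (Gdf2 fl/fl, Bmp10 fl/fl), in which Cre under the Lrat promoter, active in HSCs, removes both ligand genes there. Controls were littermates whose own alleles are not spelled out, and all mice were C57BL/6 by the labels (C57BL/6J by the methods) and, per the account of the study, 8 to 10 weeks old, with no treatment named. ECs were sorted from whole liver as live CD45- CD31+ cells, a gate that takes ECs of sinusoids, portal and central vessels alike, so a library averages over all of them. The labels number the libraries of a group, and the study's account gives 3 mice a group as biological replicates, so n counts mice. The question was which gene programs of hepatic ECs, beyond the well-known sinusoidal and capillary markers, differ when HSC-derived BMP9 and BMP10 are missing.

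BMP9 and BMP10 are circulating ligands of the endothelial receptor ALK1 (encoded by Acvrl1) and its co-receptor endoglin (Eng), which signal through SMAD1, SMAD5 and SMAD9 to genes such as the inhibitory Smad6 and Smad7 and the Id family. Liver sinusoidal ECs are unusual among capillary ECs: they lack a continuous basement membrane, carry open fenestrae, and clear waste from blood by clathrin-mediated endocytosis through scavenger receptors into a large lysosomal compartment. Continuous capillaries of other organs instead carry caveolae, a basement membrane and lipid-handling proteins.

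The libraries held 66694659 to 87879751 counts, with 18149 to 19299 genes having at least 1 count. Levels in ECs are given as CPM (counts per 1000000, with TMM scaling). The first principal component of variance-stabilized counts from DESeq2 took 86.3% of the variance of the 500 most variable genes and separated the genotypes. Controls lay together on it, between -39.6 and -39.2, whereas HSC-KO replicate 1 (27.6) lay nearer to them than replicates 2 (43.6) and 3 (47.1). Gdf2 itself, whose source in these libraries was not tested, was at 2.94, 1.75 and 1.03 CPM in control and 0, 0.0698 and 0 CPM in HSC-KO ECs (log2 fold change -6.39 ± 1.14). Lrat, the retinol-storing enzyme of HSCs, was at 24.5, 16.6 and 11.9 CPM in control and 3.32, 6.78 and 6.75 CPM in HSC-KO ECs. The 14 tested HSC markers summed to 189 to 270.4 CPM in control and 127 to 164 CPM in HSC-KO ECs, 3 of them fell (Gdf2, Lrat and Hgf; 5 without control replicate 3), and in bulk libraries fewer cells of a type and less RNA per cell cannot be told apart. Of 13 tested macrophage markers 9 fell, with sums of 69.8 to 85.7 CPM in control and 4.46 to 6.78 CPM in HSC-KO ECs. Kupffer cell (KC) genes stood at no more than 0.0832% of their level in sorted control macrophages, and the C1q and Csf1r genes, which other macrophages share, at 0.176% to 0.271% in control and 0.0182% to 0.0228% in HSC-KO ECs. The 12 EC markers summed to 14986 to 15344 CPM in control and 15170.3 to 16295 CPM in HSC-KO ECs, with only Emcn called, and the VE-cadherin gene Cdh5 was at 633, 631 and 503 CPM in control and 686, 620.4 and 589 CPM in HSC-KO ECs. Both groups therefore carried the EC markers of their label. Xist, the X-inactivation RNA of female cells, was above 0 in control replicate 1 and HSC-KO replicates 1 and 3, so each group held libraries of both sexes.

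Of 16053 genes tested, 2198 were differentially expressed genes (DEGs), with an adjusted p under 0.05 in edgeR's quasi-likelihood test and an absolute log2 fold change over 1, which is 13.7% of all genes tested. In Gdf2/Bmp10 HSC-KO ECs 1233 genes were higher (7.68%) and 965 lower (6.01%), the shares against which the counts of each gene list below are to be read. The median log2 fold change over all genes tested was 0.005. Groups did not overlap in CPM for 2196 of the 2198 DEGs, and for 40.4% of all genes tested. Among DEGs 516 had risen and 259 had fallen by more than 3 on the log2 scale, that is more than 8-fold. No count was found in any control library for 126 of the called genes, and none in any HSC-KO library for 49. With library size alone in place of TMM scaling, the median of all genes moved to 0.30, and 10.8% of genes were called higher and 4.12% lower, so that 72.5% rather than 56.1% of DEGs were higher. A single gene, Dnase1l3, which encodes the secreted DNase of sinusoidal ECs and is named here after its values were seen, took 14%, 20.4% and 18.5% of all counts in control and 5.57%, 0.276% and 0.127% in HSC-KO replicates 1, 2 and 3. With library size alone and Dnase1l3 out of the table, an alternative added after this was seen, the median was 0.05 and 1282 genes were higher and 896 lower. Dnase1l3 itself was not called (log2 fold change -3.41 ± 1.35, adjusted p = 0.12 by edgeR), although no HSC-KO library reached a control, and without HSC-KO replicate 1 its log2 fold change was -6.76 and it was a DEG. Fold changes below are log2 values of HSC-KO over control with the standard error after ±, n = 3 libraries in each group, and CPM values are given for replicates 1, 2 and 3 in that order.

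**Figure D1:**
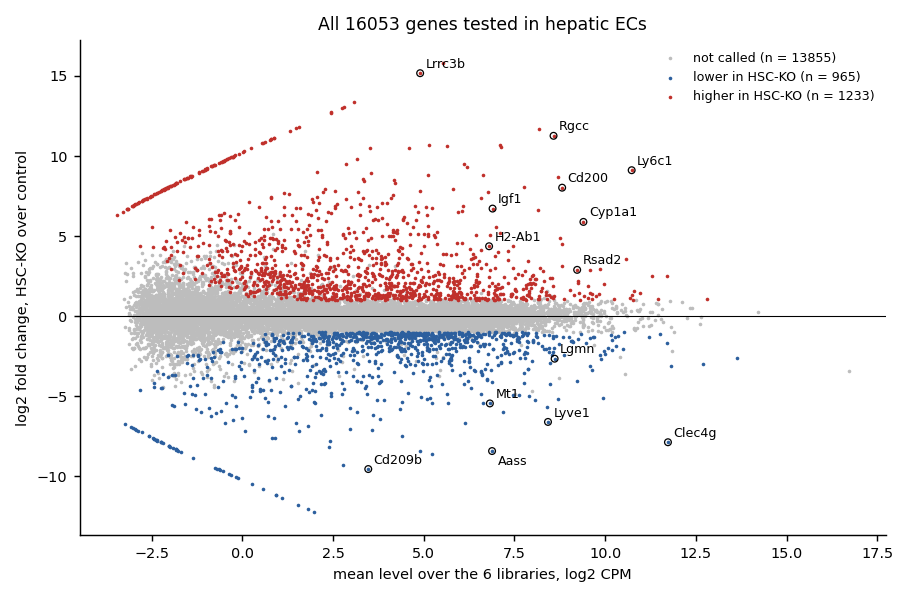
Log2 fold change (HSC-KO over control ECs, vertical axis) against mean log2 CPM (horizontal axis) for the 16053 genes tested, 1 point per gene, with DEGs colored by direction. The 1233 higher and 965 lower DEGs span the whole range of expression, and the diagonal rows of points are genes at 0 counts in every library of 1 group.

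The largest rises were in genes that were near 0 in every control library. Lrrc3b, a leucine-rich repeat membrane protein gene, was at 0, 0 and 0 CPM in control and 60.7, 62.3 and 55.8 CPM in HSC-KO ECs, at least 1421-fold higher against a floor of 3 counts in each control library. Fam107a, an actin-associated stress gene, was also listed at 0 in all 3 controls and at 20.7, 17.6 and 12.6 CPM in HSC-KO ECs, at least 404-fold higher. Prnd, which encodes the prion-like protein doppel, was at 54.4, 152 and 73.1 CPM against 0 in the controls (at least 2220.1-fold), but its exons overlap those of Prn on the same strand. In each of these genes the HSC-KO libraries stood far from the controls, and groups that do not overlap were a condition for naming them. The apelin receptor gene Aplnr was at 0.33, 0.129 and 0.0543 CPM in control and 333, 522 and 894 CPM in HSC-KO ECs (log2 fold change 11.68 ± 0.74, adjusted p = 0.00011 by edgeR). Rgcc, a regulator of the cell cycle found in capillary ECs, was at 0.342, 0.372 and 0.217 CPM in control and 377, 1049 and 865 CPM in HSC-KO ECs (11.26 ± 0.56), and the potassium channel gene Kcna5 had 3 counts in the controls together and was 1567-fold (95% counting interval 536 to 7603) higher in HSC-KO ECs. Replicate 1 was the lowest HSC-KO library in Aplnr, Rgcc and Kcna5.

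The rest of the 15 largest rises covered transcription factors, matrix and transporters. They were the factor genes Ebf1 (10.71) and Meox1 (10.56), the long noncoding Gm12002 (10.68), the channel subunit gene Lrrc55 (10.63), the guidance gene Sema7a (10.47), the nucleoside transporter gene Slc28a2 (9.82), the basement membrane collagen gene Col15a1 (9.49), the chloride channel family gene Clic5 (9.34) and Ly6c1 (9.11). Ly6c1, a surface protein of continuous capillary ECs, went from 7.33, 2.47 and 8.53 to 3843, 3037 and 3296 CPM. Its near-identical neighbor Ly6c2 was at 0.207, 0.129 and 0.109 to 77, 62.2 and 67.3 CPM, and counting could have split reads between the pair.

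The largest falls left at most a few percent of control means that ranged widely, as from 17.6 CPM (Gna14) to 6768 CPM (Clec4g). Aass, the first enzyme of lysine breakdown, was at 219, 243 and 243 CPM in control and 0.615, 0.67 and 0.758 CPM in HSC-KO ECs (log2 fold change -8.43 ± 0.17, adjusted p = 1.5e-06 by edgeR), with all 3 HSC-KO libraries at nearly the same trace. Clec4g, the sinusoidal lectin LSECtin, was at 7575, 5977 and 6753 CPM in control and 77.7, 4.86 and 3.63 CPM in HSC-KO ECs, which left 1.15%, 0.0718% and 0.0537% of the control mean. The heparan sulfate proteoglycan gene Gpc1 was at 88, 79 and 55.9 CPM in control and 0.435, 0.0698 and 0.0245 CPM in HSC-KO ECs (-8.63 ± 0.80), and Ackr4, a receptor that scavenges chemokines, at 72.9, 49 and 57.1 CPM in control and 0.276, 0.14 and 0.0978 CPM in HSC-KO ECs (-8.40 ± 0.40). In each of these 4 genes the HSC-KO libraries were reduced to traces, with replicate 1 the highest of them in Clec4g, Gpc1 and Ackr4. Others among the 15 were the lectin gene Cd209b (-9.56), the Wnt modulator gene Dkk3 (-7.49), the orphan nuclear receptor gene Esrrb (-7.14), the integrin gene Itga8 (-6.66), the hyaluronan receptor gene Lyve1 (-6.61), the metallothionein gene Mt2 (-6.41), the cytokine gene Il1a (-6.20), the G protein gene Gna14 (-6.01), the CLEC2 gene Clec1b (-5.99), the amino acid transporter gene Slc7a5 (-5.79) and Tpbgl (-5.67). Exons of Clec1b overlap Clec9a on the same strand.

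**Figure D2:**
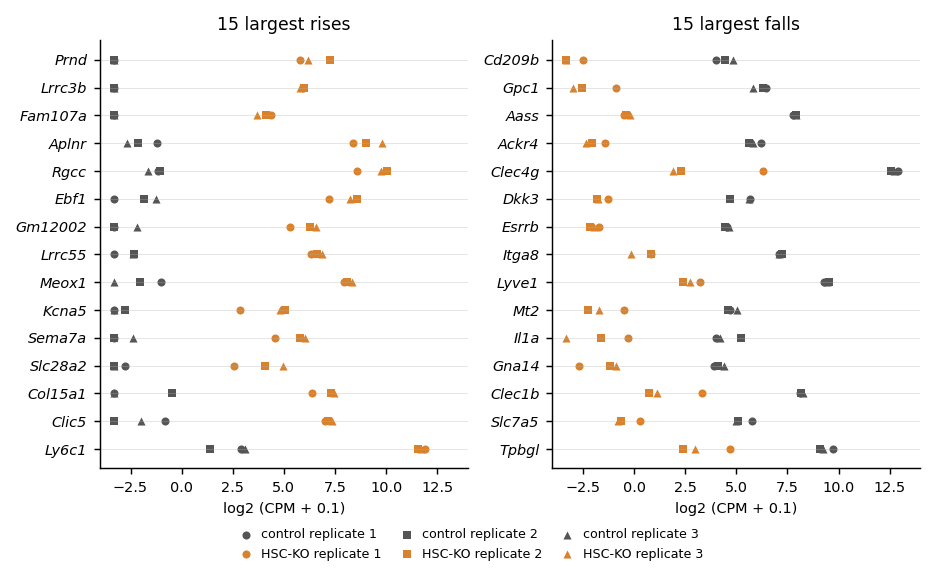
Level in each library as log2 (CPM + 0.1) (horizontal axis), with circles, squares and triangles for replicates 1, 2 and 3, of 15 DEGs that rose most and 15 that fell most, all with mean log2 CPM of at least 3 and groups that do not overlap. Genes listed at 0 in every control (Prnd, Lrrc3b, Fam107a) lie at the left edge, and replicate 1 is the highest HSC-KO library for Clec4g, Gpc1 and Tpbgl.

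Genes of BMP and TGF-beta signaling moved in both directions. Of 55 tested, 12 rose and 14 fell (7.68% and 6.01% over all genes), with a median log2 fold change of 0.01. Among the receptors, Acvrl1 rose from 62.1, 56.1 and 63.4 to 235, 159 and 208 CPM (log2 fold change 1.73 ± 0.17, adjusted p = 0.00054 by edgeR), while Eng fell from 3857, 2843 and 3418 to 1495, 1110.0 and 1472 CPM (-1.31 ± 0.22) and the BMP type I receptor gene Acvr1 fell (-1.67 ± 0.16). The type II receptor gene Bmpr2 was at 271, 357 and 289 CPM in control and 246, 259 and 242 CPM in HSC-KO ECs and was not called. ALK1 and its co-receptor gene therefore stood apart from controls on opposite sides.

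The inhibitory SMAD genes, which BMP signals switch on, were both lower. Smad6 was at 67.7, 75.4 and 58.3 CPM in control and 11.4, 7.82 and 5.69 CPM in HSC-KO ECs (log2 fold change -3.01 ± 0.27, adjusted p = 0.00036 by edgeR) and Smad7 at 45, 73.7 and 50.8 CPM in control and 16.3, 13.9 and 18.6 CPM in HSC-KO ECs (-1.80 ± 0.22). No HSC-KO library reached the lowest control in either gene. The Id genes, also known targets, did not move as a block: Id2 fell (-2.28 ± 0.37) and Id4 fell (-1.34 ± 0.27), whereas Id1 was at 37.9, 22.5 and 23 CPM in control and 41.1, 26.2 and 26.2 CPM in HSC-KO ECs and Id3 at 1515, 1352 and 1189 CPM in control and 1219.8, 376 and 629.9 CPM in HSC-KO ECs, neither of them called. The groups overlap in Id1 and Id3. Of the signal transducers, Smad5 rose (1.63 ± 0.11, exons overlapping Gm27301), Smad9 fell from an already low level (0.183, 0.695 and 0.244 to 0.0424, 0 and 0 CPM), and Smad1, Smad2, Smad3 and Smad4 were not called.

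Among 14 tested ligand genes 3 rose and 4 fell, Gdf2 among the falls. Bmp2 and Bmp6, the ligands through which liver ECs raise hepcidin in hepatocytes, fell from 369, 481 and 539.8 to 32.6, 6.04 and 4.43 CPM (log2 fold change -5.01 ± 0.81, adjusted p = 0.0049 by edgeR) and from 61.8, 80.1 and 86.6 to 5.47, 5.47 and 6.92 CPM (-3.68 ± 0.19). HSC-KO replicates 1, 2 and 3 kept 7.03%, 1.3% and 0.956% of the control mean of Bmp2 and 7.19%, 7.18% and 9.09% of that of Bmp6, with no overlap between the groups. Bmp1, a protease that processes procollagens and releases BMPs from chordin, was at 1.34, 0.744 and 0.475 CPM in control and 39.5, 54 and 70.8 CPM in HSC-KO ECs (log2 fold change 5.99 ± 0.44, adjusted p = 0.00018 by edgeR). Ltbp1, which tethers latent TGF-beta to matrix, was at 1.65, 1.76 and 0.788 CPM in control and 33.1, 83.1 and 88 CPM in HSC-KO ECs (5.60 ± 0.50), and the follistatin-like gene Fstl1 at 9.08, 15.8 and 6.61 CPM in control and 88.3, 176 and 198 CPM in HSC-KO ECs (3.88 ± 0.43). In these 3 genes every HSC-KO library was above every control library and replicate 1 was the lowest of the 3. Bmp4 (1.86), Gdf10 (5.23) and Ltbp3 (2.52) also rose, whereas Bmper (-2.32), a secreted BMP modulator, and Htra1 (-2.21), a protease that restrains TGF-beta, fell. Inha went from 0.439, 0.21 and 0.204 CPM to 0 in all HSC-KO libraries, at least 7.73-fold lower. The TGF-beta gene Tgfb1 was at 19.5, 32.1 and 20.2 CPM in control and 16.8, 18.6 and 17.2 CPM in HSC-KO ECs, not called.

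**Figure D3:**
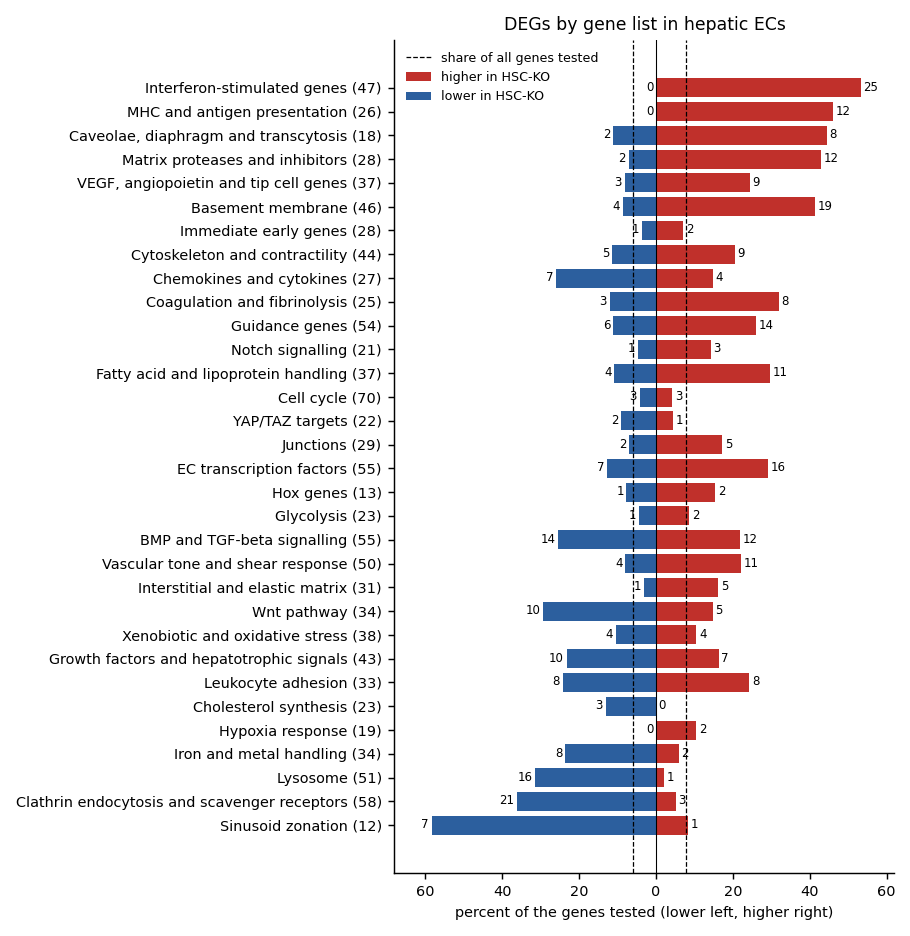
Share of tested members of each gene list (number tested in brackets) that were DEGs, in percent (horizontal axis), higher in HSC-KO ECs to the right and lower to the left, with the number of DEGs at each bar and dashed lines at the shares over all genes tested (7.68% and 6.01%). The interferon and MHC lists have no lower member, and the lysosome and scavenger lists have 1 and 3 higher members.

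Many interferon-stimulated genes were higher in Gdf2/Bmp10 HSC-KO ECs. These genes encode antiviral proteins and are switched on through the interferon-stimulated response element (ISRE) in their promoters. Of 47 tested, 25 were DEGs, every one of them higher (7.68% of all genes tested were higher), the median log2 fold change was 1.06, and groups did not overlap in 43 of the 47 (40.4% over all genes). Counts were 22 to 27 when any 1 library was left out, and 14 when the change itself was tested against a log2 fold change of 1. To show the element, the promoters of Rsad2 and Ifit1, among the largest rises, of Isg15, chosen after its values were seen as the best-known member, and of Bst2, which was not called, follow as RefSeq gives them on GRCm38.p6, 5′ to 3′ on the strand of the gene, from 250 bases before to 50 after the start. The window of Isg15 lies at chr4:156200769-156201068 (minus strand), that of Rsad2 at chr12:26456403-26456702 (minus), that of Ifit1 at chr19:34640639-34640938 (plus) and that of Bst2 at chr8:71537423-71537722 (minus), and capitals mark the ISRE core GAAANNGAAA or its reverse complement TTTCNNTTTC.
Isg15: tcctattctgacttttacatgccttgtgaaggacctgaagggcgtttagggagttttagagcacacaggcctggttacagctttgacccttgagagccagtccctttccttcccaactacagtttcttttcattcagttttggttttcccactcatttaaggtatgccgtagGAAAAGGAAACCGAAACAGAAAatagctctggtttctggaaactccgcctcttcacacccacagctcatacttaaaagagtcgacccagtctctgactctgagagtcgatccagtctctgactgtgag
Rsad2: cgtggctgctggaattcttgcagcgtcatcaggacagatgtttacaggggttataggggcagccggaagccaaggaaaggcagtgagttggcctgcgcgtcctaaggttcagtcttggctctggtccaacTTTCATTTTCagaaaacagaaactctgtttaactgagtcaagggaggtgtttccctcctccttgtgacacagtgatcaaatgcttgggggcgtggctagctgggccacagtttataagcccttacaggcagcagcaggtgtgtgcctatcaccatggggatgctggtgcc
Ifit1: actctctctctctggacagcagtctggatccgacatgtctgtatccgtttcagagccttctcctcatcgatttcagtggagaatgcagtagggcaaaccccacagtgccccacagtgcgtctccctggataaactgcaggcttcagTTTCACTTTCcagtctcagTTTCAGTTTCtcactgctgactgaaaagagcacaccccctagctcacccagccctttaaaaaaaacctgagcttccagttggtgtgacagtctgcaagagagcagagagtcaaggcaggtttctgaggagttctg
Bst2: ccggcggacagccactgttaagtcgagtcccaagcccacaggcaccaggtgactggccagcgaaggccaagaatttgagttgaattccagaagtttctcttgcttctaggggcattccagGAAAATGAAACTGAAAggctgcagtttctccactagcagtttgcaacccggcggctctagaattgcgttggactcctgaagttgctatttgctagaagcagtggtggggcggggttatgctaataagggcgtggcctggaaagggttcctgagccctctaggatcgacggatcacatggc

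The Isg15 window held 3 overlapping matches, at -78, -72 and -66 from the start, Rsad2 held 1 at -120, Ifit1 held 2 at -104 and -85, and Bst2 held 2 overlapping ones at -130 and -124. Of the 47 genes, 31 had a window in the RefSeq table and 19 of these (61.3%) held the core, against 3.44% of all 32851 windows and 3.75% of the 10442 tested genes with a window. Within the list, 11 of 17 called genes and 8 of 14 genes that were not called held it, so the letters were present in both. The window of Irf7 held none. A match describes these letters and is no measure of binding.

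Isg15, a ubiquitin-like modifier, was at 37.2, 35 and 31.6 CPM in control and 108, 139.9 and 151 CPM in HSC-KO ECs (log2 fold change 1.94 ± 0.16, adjusted p = 0.00025 by edgeR). Rsad2, the antiviral enzyme viperin, was at 109, 167 and 152 CPM in control and 749, 1025 and 1396 CPM in HSC-KO ECs (2.89 ± 0.28), and Irf7, the transcription factor that amplifies the response, at 121, 117 and 115 CPM in control and 445, 747 and 672 CPM in HSC-KO ECs (2.40 ± 0.21). In these genes every HSC-KO library stood well above every control, and replicate 1 was the lowest of them. Oas2 (3.05), Zbp1 (2.76), Ly6e (2.50), Ifit1 (2.15), Gbp3 (2.08) and Igtp (2.04) made up the rest of the largest rises, and exons of Igtp overlap Irgm2 on the same strand. Bst2, or tetherin, was at 471, 427 and 422 CPM in control and 472, 516 and 464 CPM in HSC-KO ECs, where the groups overlap. Of the interferon-gamma chemokine genes, Cxcl9 fell from 127, 170.3 and 142 to 55.2, 26.3 and 16.4 CPM (-2.16 ± 0.41), and Cxcl10 was at 106, 82.8 and 83.8 CPM in control and 62, 25.1 and 19.6 CPM in HSC-KO ECs, not called (adjusted p = 0.054 by edgeR).

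MHC and antigen presentation genes were higher in part, most of class II among them. Of 26 tested, 12 rose and none fell (median 1.04), 5 of 16 in the class I group (median 0.87) and 7 of 10 in the class II group (median 3.41), and with any 1 library left out 11 to 14 rose. When the change itself was tested against a log2 fold change of 1, 7 rose. H2-Ab1, the beta chain of the class II molecule I-A, was at 10.4, 10 and 10.5 CPM in control and 230.3, 189 and 218 CPM in HSC-KO ECs (log2 fold change 4.36 ± 0.14, adjusted p = 9.9e-06 by edgeR). Ciita, the class II transactivator, was at 0, 0.129 and 0.217 CPM in control and 4.08, 2.83 and 3.11 CPM in HSC-KO ECs (4.86 ± 0.91), and H2-DMb1, part of the peptide loader of class II, at 0.683, 1.39 and 0.896 CPM in control and 24.9, 32.8 and 37.7 CPM in HSC-KO ECs (5.01 ± 0.32). The 3 HSC-KO libraries lay close together in H2-Ab1, 20.6-fold above the controls. H2-DMa (3.81), H2-Aa (3.62), Cd74 (3.20) and H2-Eb1 (2.92) also rose, as did the immunoproteasome gene Psmb8 (1.46), while the class I gene H2-K1 was at 3469, 2607 and 3351 CPM in control and 5943, 5997 and 5404 CPM in HSC-KO ECs, past the adjusted p but inside the fold limit (0.88 ± 0.21). Exons of Cd74 overlap those of Mir5107. The class I light chain B2m and the peptide transporter Tap1, drawn with them, rose too (1.04 and 1.08).

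Class II genes are also expressed by macrophages and dendritic cells, so traces of those cells were set beside these rises. From the level of KC genes in control ECs, and of C1q and Csf1r genes in HSC-KO ECs, macrophage RNA would account for 49.5% in control and 2.69% in HSC-KO ECs of H2-Ab1, and for 21.2% in control and 0.768% in HSC-KO ECs of Ciita. With the C1q and Csf1r genes used for controls too, the control shares were 143% for H2-Ab1 and 61.1% for Ciita, so the estimate for controls depends on the marker set and can pass the measured level. The C1q and Csf1r genes themselves fell, C1qa from 8.67, 5.79 and 7.93 to 0.849, 0.53 and 0.489 CPM. The dendritic cell genes Itgax, Flt3, Xcr1 and Siglech were at 0 counts in every HSC-KO library. Of the neutrophil and monocyte markers, 3 of 3 tested rose: Ly6c2 (above), Csf3r from 0.0488, 0 and 0 to 1.11, 1.28 and 1.28 CPM and Plac8 from 10.8, 11.5 and 13.5 to 39.1, 22.4 and 17.2 CPM, with S100a8 at 0 in all 6 libraries. Without genes over 20 times higher in control macrophages than in control ECs, a step that takes out most class II genes themselves, 5 MHC genes rose. The part of these cells in the class II rise was not tested.

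**Figure D4:**
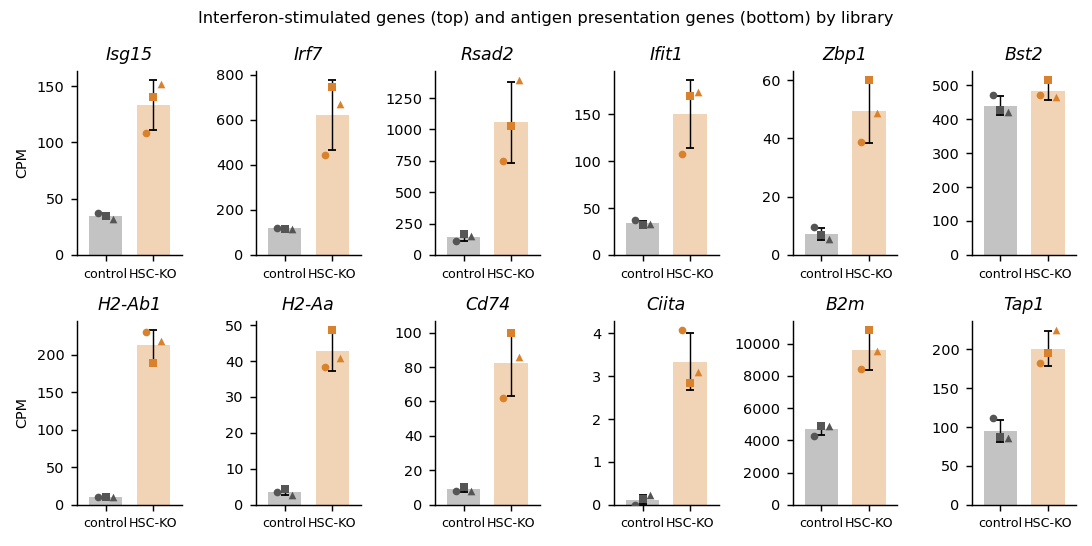
CPM (vertical axis, from 0) of 6 interferon-stimulated genes and 6 antigen presentation genes, with circles, squares and triangles for replicates 1, 2 and 3, columns for the mean and error bars for the SD of 3 libraries. HSC-KO libraries lie above the controls in every panel but that of Bst2, where the groups overlap.

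Many scavenger receptor genes and some genes of the clathrin machinery were lower. Of 58 genes of this list tested, 21 fell and 3 rose (median -0.81): 15 of 32 receptors fell and 2 rose, against 6 falls and 1 rise in 26 genes of the machinery (median -0.47). With library size alone 18 of the list fell. The class A scavenger receptor gene Msr1 was at 177, 282 and 143 CPM in control and 34, 2.86 and 1.26 CPM in HSC-KO ECs (log2 fold change -3.98 ± 1.15, adjusted p = 0.048 by edgeR). Lyve1 was at 621, 727 and 691 CPM in control and 9.16, 5.21 and 6.48 CPM in HSC-KO ECs. Replicate 1 kept more Msr1 than the other HSC-KO libraries, whereas all 3 HSC-KO libraries were near the same trace in Lyve1. Cd209b, Clec4g and Clec1b belong here and are described above. Marco and Cd209f also fell, from under 1 CPM, and both are macrophage genes that fell together with the KC markers. Stab2 was at 2401, 2155 and 2462 CPM in control and 952, 117 and 100.3 CPM in HSC-KO ECs and Fcgr2b at 2936, 2659 and 2629.6 CPM in control and 592, 49.4 and 26.9 CPM in HSC-KO ECs: neither was called (adjusted p = 0.071 and 0.056 by edgeR), although the groups do not overlap, and replicate 1 was the HSC-KO library nearest to the controls in both. Among the machinery, Itsn1, a clathrin scaffold gene chosen after its values were seen, fell (-3.18 ± 0.37), the neuronal dynamin gene Dnm3 rose from 0.757, 0.453 and 0.937 to 6.27, 19.5 and 19.9 CPM, and Cltb, Picalm, Ap2m1 and Rab7 were not called.

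Lysosomal genes were lower in part. Of 51 tested, 16 fell and 1 rose (median -0.68). With library size alone 7 fell (median -0.39), with the change tested against a log2 fold change of 1 the count was 6, and with 1 library left out it was 11 to 20. Lgmn, the asparaginyl endopeptidase legumain, was at 586, 701 and 731 CPM in control and 199, 71.4 and 48.7 CPM in HSC-KO ECs (log2 fold change -2.66 ± 0.50, adjusted p = 0.0092 by edgeR). The lysosomal mannosidase gene Man2b1 was at 434, 338 and 369 CPM in control and 101, 58.2 and 67.9 CPM in HSC-KO ECs (-2.33 ± 0.23) and the cathepsin L gene Ctsl at 1656, 1493 and 1777 CPM in control and 535, 278 and 259 CPM in HSC-KO ECs (-2.20 ± 0.30, exons overlapping Gm49230). These 3 genes fell in all HSC-KO libraries, least in replicate 1. Lamp2 (-1.64), Manba (-1.52), Ctsk (-1.50) and Ctsc (-2.24) fell too, and by the estimate above macrophage RNA would supply 105% in control and 134% in HSC-KO ECs of Ctsc. Ctsh rose from 12.2, 9.28 and 7.33 to 32.9, 31 and 23.2 CPM, and the regulator genes Tfeb, Tfe3 and Mitf were not called.

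Genes of caveolae, the membrane pits of continuous capillaries, rose in part. Of 18 genes for caveolae, diaphragms and transcytosis 8 rose and 2 fell (median 0.81), and with 1 library left out 8 rose and 1 or 2 fell. Cav1, the caveolin that shapes the pit, was at 43.3, 38.2 and 39.3 CPM in control and 333, 497 and 463 CPM in HSC-KO ECs (log2 fold change 3.42 ± 0.19, adjusted p = 7e-05 by edgeR). Its coat genes Prkcdbp (cavin 3) and Ptrf (cavin 1) were at 1.57, 0.728 and 1.75 to 139.9, 78.6 and 144 CPM and 384, 988 and 877 to 2849.9, 5952 and 3977 CPM. Ehd2, the ATPase at the neck of the pit, was at 5.17, 7.92 and 9.03 CPM in control and 197, 290.4 and 312 CPM in HSC-KO ECs (5.18 ± 0.30), while its relative Ehd3 fell from 5621, 6364 and 7218 to 1505, 392 and 318 CPM (-3.12 ± 0.61) and Ehd4 (3.13) rose. Genes of the Ehd family thus moved in opposite directions. Plvap, which builds the diaphragm of fenestrae and caveolae, rose from 242, 114 and 197 to 1309.8, 1077 and 1638 CPM (2.86 ± 0.31), and Cav2 was at 29.1, 44.2 and 29.9 CPM in control and 39.5, 49.1 and 46.9 CPM in HSC-KO ECs, not called.

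The same list held 3 water channel genes, which moved in opposite directions. Aqp1, a very abundant transcript of control ECs, fell from 12549, 10151 and 12477 to 3238, 633 and 629 CPM (log2 fold change -2.97 ± 0.68, adjusted p = 0.02 by edgeR), with replicate 1 well above the other HSC-KO libraries. Aqp7, an aquaglyceroporin that passes glycerol, was at 0 counts in the controls and 4.35, 11.8 and 16.4 CPM in HSC-KO ECs, at least 259-fold higher. Aqp11 (1.56) rose as well.

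Lipid-handling genes were raised more often than lowered, 11 of 37 against 4 (median 0.21). Scarb1, the receptor for HDL that also carries LDL across ECs, rose from 227, 185 and 235 to 1173, 1685 and 2073 CPM (log2 fold change 2.93 ± 0.25, adjusted p = 0.0003 by edgeR). Pltp, the phospholipid transfer protein, was at 6.54, 4.3 and 8.7 CPM in control and 237, 156 and 262 CPM in HSC-KO ECs (5.06 ± 0.34). Lpl, the lipase of capillary beds, was at 0.952, 1.29 and 1.28 CPM in control and 5.46, 8.21 and 7.47 CPM in HSC-KO ECs (2.59 ± 0.28). All HSC-KO libraries lay above all controls in the 3 genes. Angptl4 (4.99), an inhibitor of Lpl, the nuclear receptor genes Pparg (2.57) and Nr1h3 (2.11), the cholesterol exporter gene Abca1 (2.17) and the lipase gene Lipe (1.90) rose too, and exons of Nr1h3 overlap Gm13783. The fatty acid binding protein genes Fabp1 (-1.86), Fabp5 (-1.15) and Fabp7 were among the falls, the last from under 1 CPM to 0 in every HSC-KO library. Hepatocytes make Fabp1 too, and 13 of 14 hepatocyte markers had log2 fold changes below 0, 2 of them called. The part of hepatocyte RNA in the fall of Fabp1 was not tested. Fabp7 is a macrophage gene as well, at a mean of 171 CPM in the sorted control macrophages, and it fell together with the KC markers, whose part in its fall was not tested.

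Metal handling genes fell in part, some of them steeply. Of 34 genes tested 8 fell and 2 rose (median -0.53), with 1 rise without control replicate 1 or 2 and without HSC-KO replicate 2 or 3. Mt1, a metallothionein that binds zinc and copper, was at 223, 189 and 252 CPM in control and 11, 2.58 and 1.52 CPM in HSC-KO ECs (log2 fold change -5.46 ± 0.76, adjusted p = 0.0025 by edgeR), and Mt2 at 25.9, 23.7 and 32.3 CPM in control and 0.615, 0.112 and 0.208 CPM in HSC-KO ECs (-6.41 ± 0.57). The zinc and manganese importer gene Slc39a8 was at 187, 210.0 and 179 CPM in control and 8.74, 2.96 and 1.72 CPM in HSC-KO ECs (-5.42 ± 0.61). Mt1 kept 4.96%, 1.17% and 0.686% of the control mean in HSC-KO replicates 1, 2 and 3, and replicate 1 was the highest HSC-KO library in all 3 genes. Slc40a1, the iron exporter ferroportin, fell from 175, 153 and 122 to 15.6, 2.68 and 1.57 CPM (-4.50 ± 0.85), and Steap2 (-6.69) and Blvrb (-1.37) fell. Steap1 went to 0 in every HSC-KO library, at least 8.76-fold lower. The zinc transporters Slc39a14 (1.37) and Slc39a10 (1.37) rose, and the zinc exporter gene Slc30a1, a further target of the metal sensor MTF1, was at 52.9, 52.3 and 54.9 CPM in control and 99.9, 66.3 and 74.4 CPM in HSC-KO ECs (0.59 ± 0.17), inside the fold limit. By the estimate used for class II genes, macrophage RNA would supply 1.07% in control and 2.43% in HSC-KO ECs of Slc40a1.

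Metallothionein genes are switched on by MTF1 through metal response elements (MREs), whose core is TGCRCNC, with R for A or G. Capitals mark the looser pattern TGCNCNC or its reverse complement GNGNGCA, so some marked stretches, such as TGCTCTC in Mt2, are not MRE cores. The Mt1 and Mt2 windows follow as RefSeq gives them on GRCm38.p6. They lie at chr8:94178839-94179138 and chr8:94172368-94172667, both on the plus strand.
Mt1: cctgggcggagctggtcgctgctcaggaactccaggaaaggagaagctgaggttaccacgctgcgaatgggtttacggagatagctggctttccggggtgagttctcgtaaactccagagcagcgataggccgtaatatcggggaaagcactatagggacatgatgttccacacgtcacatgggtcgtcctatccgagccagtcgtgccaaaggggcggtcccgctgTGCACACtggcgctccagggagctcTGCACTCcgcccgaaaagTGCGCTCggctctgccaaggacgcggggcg
Mt2: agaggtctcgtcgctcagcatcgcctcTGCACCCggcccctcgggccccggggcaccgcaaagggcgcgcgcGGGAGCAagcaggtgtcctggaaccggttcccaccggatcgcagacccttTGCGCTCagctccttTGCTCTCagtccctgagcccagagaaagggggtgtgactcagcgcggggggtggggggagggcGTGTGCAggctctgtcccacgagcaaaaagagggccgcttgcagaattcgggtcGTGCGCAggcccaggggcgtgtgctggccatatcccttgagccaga

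Mt1 held 3 matches and Mt2 held 6, against 2 in the window of Slc30a1, and these letters occur in 51.0% of all windows, so their presence alone sets no gene apart.

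Basement membrane genes rose in part. Of 46 tested 19 rose and 4 fell (median 0.52), and 19 or 20 rose with any 1 library left out. All 7 tested genes of collagen IV and other network collagens rose, with a median of 2.79, as did 4 of 9 laminin genes, whereas of 16 genes for assembly enzymes 3 rose and 2 fell (median -0.54). Col15a1, a collagen that ties the membrane to the interstitium, was at 0, 0.631 and 0 CPM in control and 82.5, 158 and 174 CPM in HSC-KO ECs. Vwa1, a perlecan-binding matrix protein gene, was at 0.366, 0.404 and 0.516 CPM in control and 215, 171 and 208 CPM in HSC-KO ECs (log2 fold change 8.85 ± 0.22, adjusted p = 3.1e-06 by edgeR), and Sparcl1, a matricellular protein gene, at 3.08, 2.13 and 0.842 CPM in control and 429, 1016 and 1021 CPM in HSC-KO ECs (8.67 ± 0.66). Replicate 1 was the lowest HSC-KO library of Col15a1 and Sparcl1 but the highest of Vwa1. Emid1 (5.99), the laminin beta 1 gene Lamb1 (5.02), Col4a3 (3.29), Nid2 (3.25) and Col8a1 (2.89) rose as well. Loxl3 (-2.14), Igfbp7 (-2.07), Emilin1 (-1.76) and Loxl2 (-1.58) fell, and exons of Loxl2 overlap Mir6950.

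Genes of interstitial matrix gave rises of single members. Of 31 tested 5 rose and 1 fell (7.68% and 6.01% of all genes), the rises all among 20 elastic and adhesive protein genes: Eln, the elastin gene, from 7.79, 4.74 and 2.58 to 54, 30.3 and 75.9 CPM (log2 fold change 3.41 ± 0.48, adjusted p = 0.0027 by edgeR), Fbln5, which guides elastin assembly, from 3.87, 3.22 and 1.7 to 33.8, 31.3 and 19.9 CPM (3.27 ± 0.35), and Mfap2 (3.84), Thbs1 (2.78) and Mgp (1.82). The HSC-KO libraries of Eln spread from 30.3 to 75.9 CPM and still lay above every control. Of 11 fibrillar collagens only Col27a1 (-2.40) was called, and it fell, while Col1a1, Col1a2 and Col3a1, which HSCs and fibroblasts make, were not called. Without HSC-KO replicate 1, 5 genes of the interstitial list rather than 1 were called lower, and 2 without control replicate 3.

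Of 28 matrix proteases and their inhibitors 12 rose and 2 fell (median 0.75). Mmp15, a membrane-anchored metalloprotease gene, rose from 1.84, 2.59 and 3.03 to 78.7, 55.1 and 96 CPM (log2 fold change 4.95 ± 0.30, adjusted p = 8.8e-05 by edgeR), Mmp11 from 0.391, 0.825 and 0.53 to 12.6, 29.6 and 86.2 CPM (6.21 ± 0.79), and Reck, a membrane-bound inhibitor of these proteases, from 1.28, 2.13 and 2.39 to 23.4, 33.1 and 22.4 CPM (3.77 ± 0.29). The gene of a membrane-anchored relative went down: Mmp14 was at 447, 293 and 344 CPM in control and 129, 38.8 and 46.2 CPM in HSC-KO ECs (-2.34 ± 0.46). Mmp16 had no count in the controls and 0.371, 1.07 and 0.99 CPM in HSC-KO ECs, at least 19.4-fold higher. Timp4 (6.77), Adamts9 (2.77), Adamts5 (3.31) and Mmp2 (2.73) rose, and Adamts5 was carried by replicate 1 (59.6, 9.32 and 7.29 CPM). Without that library its log2 fold change was 1.70, still a DEG.

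Some transcription factor genes of continuous and large vessels rose from near 0. Of 55 EC transcription factor genes 16 rose and 7 fell (median 0.08), and of the 26 listed for continuous or large vessels 11 rose and 3 fell. When the change was tested against a log2 fold change of 1 the rises of the whole list numbered 9, and without control replicate 3 the falls numbered 4. Meox2 had no count in the controls and 1.22, 4.35 and 3.44 CPM in HSC-KO ECs, at least 71.6-fold higher, and its relative Meox1 was at 0.391, 0.146 and 0 CPM in control and 247, 269.8 and 325 CPM in HSC-KO ECs. Ebf1, better known from B cells, was at 0, 0.178 and 0.326 CPM in control and 148, 380.2 and 301 CPM in HSC-KO ECs, and none of the tested B cell markers was called. Tcf15, a partner of Meox2 in heart capillary ECs, was at 0.0366, 0.356 and 0.272 CPM in control and 17.3, 23.9 and 44.1 CPM in HSC-KO ECs (log2 fold change 7.04 ± 0.70, adjusted p = 0.0006 by edgeR). Irx3 (7.33), Ebf3 (4.75), Nkx2-3 (4.27) and Foxf1 (3.84) also rose. Against these stood falls of Gata4 (from 335, 346 and 341 to 25.3, 4.22 and 4.16 CPM), the sinusoidal factor that serves as a point of reference, Zeb2 (-2.51), Twist1 (-1.97) and the venous factor gene Nr2f2 (-1.44). The flow-responsive Klf2 was at 208, 241 and 436 CPM in control and 271, 340.1 and 188 CPM in HSC-KO ECs, where the groups overlap, and Prox1, the lymphatic factor, at 1.55, 2.67 and 1.15 CPM in control and 1.56, 1.63 and 1.63 CPM in HSC-KO ECs. Exons of Zeb2 overlap those of Mir5129.

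Growth factor genes changed in both directions, 7 of 43 rising and 10 falling (median -0.20, and 0.13 with library size alone). Igf1, insulin-like growth factor 1, which the liver otherwise makes in hepatocytes, rose from 2.26, 2.98 and 1.51 to 111, 247 and 350.0 CPM (log2 fold change 6.72 ± 0.52, adjusted p = 0.0002 by edgeR). Igfbp3, a carrier of IGF1, rose from 1.9, 2.59 and 0.339 to 136, 581 and 580.3 CPM (8.07 ± 0.95). The hepatocyte genes Alb and Apoa1 were at 75.6, 31.4 and 43.4 CPM in control and 28.3, 32.8 and 38.5 CPM in HSC-KO ECs and 8.64, 6.34 and 6.76 CPM in control and 3.18, 4.7 and 6.92 CPM in HSC-KO ECs and were not called. Of 14 hepatocyte markers 2 fell and 0 rose, with 13 estimates below 0 (median -0.88). They summed to 102 to 152 CPM in control and 81.4 to 114 CPM in HSC-KO ECs. Replicate 1 was the lowest HSC-KO library in both Igf1 and Igfbp3, and the part of hepatocyte RNA in these values was not tested. Hgf, the hepatocyte growth factor, fell from 15.2, 18.5 and 27.3 to 0.934, 0.712 and 1.33 CPM (-4.35 ± 0.33, exons overlapping Gm43489). HSCs make Hgf too, and it fell together with Lrat, while the HSC genes Dcn and Reln were at 54.3, 36.3 and 7.94 CPM in control and 19.5, 24.4 and 12.5 CPM in HSC-KO ECs and 5.8, 3.64 and 0.489 CPM in control and 3.16, 1.91 and 1.88 CPM in HSC-KO ECs, neither called. The stem cell factor gene Kitl rose (2.05 ± 0.23) whereas its receptor gene Kit fell from 204, 176 and 159.7 to 7.34, 17.7 and 19.3 CPM (-3.61 ± 0.36). Tgfa (-2.06) fell, and Igfbp2 went to 0 in all HSC-KO libraries, at least 8.61-fold lower.

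VEGF, apelin and tip cell genes rose in 9 of 37 cases and fell in 3 (median 0.55), with 5 falls without HSC-KO replicate 1. Apln, the ligand of the receptor encoded by Aplnr, was at 0.806, 0.647 and 0.625 CPM in control and 55.9, 89.4 and 77.1 CPM in HSC-KO ECs (log2 fold change 6.74 ± 0.26, adjusted p = 1.9e-05 by edgeR), so ligand and receptor genes rose together. Esm1, a proteoglycan of tip cells at the front of vessel sprouts, was at 8.92, 25.8 and 12.1 CPM in control and 227, 275 and 247 CPM in HSC-KO ECs (4.0 ± 0.40), and Ramp3, a co-receptor for adrenomedullin, at 23.9, 9.3 and 15.6 CPM in control and 297, 359 and 348 CPM in HSC-KO ECs (4.36 ± 0.35). The VEGF receptor genes did not share this: Flt4 fell from 3431, 6129 and 5614 to 1529.8, 1792 and 1411 CPM (-1.68 ± 0.27), and Kdr was at 2841, 3123 and 2804 CPM in control and 1888, 1934 and 2044 CPM in HSC-KO ECs, inside the fold limit (-0.58 ± 0.17). Ntn4 (-2.46) and Vegfb (-2.13) fell, and Vegfa itself was at 1.14, 2.54 and 1.32 CPM in control and 0.637, 0.768 and 0.942 CPM in HSC-KO ECs, not called.

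Guidance genes were raised in 14 of 54 cases and lowered in 6 (median 0.34), 6 of the 14 ephrin and Eph genes among the rises. Ephb1 was at 0.171, 0.226 and 0.163 CPM in control and 14.6, 52.5 and 38.2 CPM in HSC-KO ECs (log2 fold change 7.55 ± 0.57, adjusted p = 0.00018 by edgeR), Epha4 at 0.976, 1.16 and 0.733 CPM in control and 32.2, 26.2 and 49.6 CPM in HSC-KO ECs (5.23 ± 0.32), and Sema3g, a semaphorin of arterial ECs, at 0.464, 0.744 and 0.543 CPM in control and 33.7, 34.3 and 26 CPM in HSC-KO ECs (5.75 ± 0.25). Efna3 had no count in the controls and was at least 9.15-fold higher. All 3 HSC-KO libraries lay above all controls in these 4 genes. Sema7a rose, as above, together with Efna4 (4.99), Slit3 (4.98) and the netrin receptor gene Unc5b (2.41). Plxnc1, the receptor of semaphorin 7A, moved opposite to its ligand and fell from 780.0, 849 and 803 to 53.5, 7.77 and 4.65 CPM (-5.20 ± 0.95). Sema4b (-2.76) and Sema4a (-5.14) fell. Exons of Plxnc1 and Sema4a overlap Gm48718 and Mir7011, and 3 falls were left without overlapping genes. Without HSC-KO replicate 1, 11 genes of the list were called lower, and without HSC-KO replicate 3, 9 were called higher.

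Notch genes gave single calls, and Wnt genes gave more falls than rises. Of 21 Notch genes 3 rose and 1 fell (median 0.29): Jag2, a Notch ligand, from 0.0732, 0.113 and 0.244 to 11.6, 19.9 and 24.8 CPM (log2 fold change 7.02 ± 0.51, adjusted p = 0.00016 by edgeR), the receptor gene Notch4 (1.01) and the modifier gene Mfng (1.40) rose, and the target gene Gja4 (-2.06) fell, a call lost without control replicate 1 or 3 and without HSC-KO replicate 2 or 3. Dll4, the main endothelial Notch ligand, was at 198, 267 and 127 CPM in control and 168, 194 and 205 CPM in HSC-KO ECs, with the groups overlapping, and the target gene Hes1 at 14.1, 18.4 and 13.1 CPM in control and 11.6, 16.7 and 8.72 CPM in HSC-KO ECs. In the Wnt list 5 of 34 rose and 10 fell (median -0.10, and 0.19 with library size alone), 3 of 6 ligands among the falls. Beyond the ligands, Nkd1, a feedback inhibitor, fell from 61.5, 42.7 and 46.9 to 12.4, 3.14 and 6.19 CPM (-2.79 ± 0.47), Dkk3 fell, as above, and Tcf7 (-2.46) fell, while Dkk2 (4.79), Reck (3.77) and Lef1 (4.08) rose and Fzd3 appeared from 0 counts, at least 11.7-fold higher. Axin2, a general target of the pathway, was at 2.29, 2.93 and 0.896 CPM in control and 1.72, 1.62 and 2.76 CPM in HSC-KO ECs. Rises in the Wnt list numbered 3 without control replicate 1, without HSC-KO replicate 2 and without HSC-KO replicate 3.

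Leukocyte adhesion and chemokine genes also divided. Of 33 adhesion genes 8 rose and 8 fell (median -0.22, and 0.08 with library size alone). Cd200, a ligand that restrains myeloid cells, rose from 3.56, 4.79 and 2.01 to 596, 1198 and 896 CPM (log2 fold change 8.02 ± 0.48, adjusted p = 8.8e-05 by edgeR), and the laminin-binding integrin gene Itga6 from 19.8, 19 and 14.6 to 164, 216 and 525 CPM (4.08 ± 0.46). Vcam1, the endothelial ligand of integrin alpha 4 beta 1, fell from 125, 80.8 and 98.7 to 31.9, 23.7 and 24.4 CPM (-1.93 ± 0.20), as did the integrin genes Itga8, Itga9 (-2.82) and Itgb3 (-3.79), while Icam1 was at 120.3, 120.1 and 100.5 CPM in control and 80.7, 66 and 65 CPM in HSC-KO ECs (-0.69 ± 0.14), inside the fold limit. The chemokine sink gene Ackr1 (-3.70) fell, and its exons overlap Cadm3. Among 27 chemokine and cytokine genes 4 rose and 7 fell (median 0.43), with 4 falls without control replicate 3. Cx3cl1, fractalkine, which tethers monocytes, was at 0.134, 0.178 and 0.0543 CPM in control and 7.95, 27.2 and 25 CPM in HSC-KO ECs (7.36 ± 0.65), Ccl21a rose from 1.48, 1.78 and 0.869 to 23.2, 13.4 and 13.7 CPM, and the receptor gene Cd40 (3.01) rose. Cxcl16 fell from 571, 645 and 622 to 282, 109 and 79.2 CPM (-1.97 ± 0.44) and Il33 (-1.97) fell. Il1b and Ccl6 fell as well, and by the estimate used above macrophage RNA would supply 61% in control and 153% in HSC-KO ECs of Il1b and 67.2% in control and 63.8% in HSC-KO ECs of Ccl6.

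Genes for vascular tone, flow sensing and coagulation gave single strong members. Of 50 tone and shear genes 11 rose and 4 fell (median -0.01, and 0.29 with library size alone), and 5 rose without control replicate 2. Nos2, the inducible nitric oxide synthase, was at 0.342, 0.42 and 0.339 CPM in control and 20.8, 25 and 25.1 CPM in HSC-KO ECs (log2 fold change 6.01 ± 0.20, adjusted p = 1.1e-05 by edgeR), whereas Nos3, the endothelial synthase, was at 119.9, 65.2 and 99.4 CPM in control and 84.1, 56.8 and 82.4 CPM in HSC-KO ECs, not called. The stretch-gated channel gene Piezo2 rose from 1.28, 1.6 and 3.49 to 51.5, 71.6 and 77.3 CPM (4.97 ± 0.42), Trpv4, another mechanosensitive channel gene, from 0.525, 0.226 and 0.665 to 4.93, 5.22 and 8.69 CPM, and the endothelin B receptor gene Ednrb (2.09 ± 0.39) rose. P2rx4 (-2.39), an ATP-gated channel of flow sensing, and the natriuretic peptide receptor gene Npr1 (-1.39) fell. Of 25 coagulation genes 8 rose and 3 fell (median 0.39). F8, clotting factor VIII, which the liver sinusoid supplies, fell from 646, 847 and 874 to 241, 98.9 and 90.5 CPM (-2.46 ± 0.39), and Tfpi (-1.49) fell. The thrombin receptor gene F2rl3 rose from 0.537, 1.26 and 0.937 to 39.7, 33 and 40.4 CPM (5.38 ± 0.33), Entpd1, which degrades ATP, from 15.5, 11.3 and 10.6 to 92.2, 101 and 129 CPM, and Plat, tissue plasminogen activator, from 3.72, 5.11 and 4.02 to 18.7, 25.4 and 28.6 CPM. Vwf was at 88, 84.9 and 80.1 CPM in control and 178, 73.4 and 90 CPM in HSC-KO ECs and was not called.

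Junction and cytoskeleton genes changed in members rather than as a whole. Of 29 junction genes 5 rose and 2 fell (7.68% and 6.01% of all genes rose and fell; median 0.16), with 4 falls without HSC-KO replicate 1 and 1 without HSC-KO replicate 2 or 3 or control replicate 1. Jam3 rose from 5.63, 6.18 and 6.1 to 63.1, 90.4 and 105 CPM (log2 fold change 3.85 ± 0.22, adjusted p = 7e-05 by edgeR), Cldn15 (3.24), Jup (2.38) and the connexin gene Gjc1 (3.72) rose, and Cdh13, T-cadherin, fell from 416, 280.4 and 530.1 to 41.3, 18.4 and 8.35 CPM (-4.17 ± 0.59). Cldn5, the main claudin of ECs, was at 706, 335 and 487 CPM in control and 569, 231 and 229 CPM in HSC-KO ECs, with the groups overlapping. Of 44 cytoskeleton genes 9 rose and 5 fell (median 0.45), and the falls numbered 2 without control replicate 1 or 2 and without HSC-KO replicate 2 or 3. The rises held 3 beta tubulin genes: Tubb2a from 21.6, 14.7 and 22.2 to 222, 198 and 150.3 CPM, Tubb6 from 17.2, 16.3 and 13.8 to 136, 220.0 and 149 CPM and Tubb2b from 2.79, 1.7 and 2.57 to 25.9, 22.3 and 16.7 CPM. The lamin A gene Lmna rose from 21.3, 22.3 and 20.5 to 135, 183 and 188 CPM (2.98 ± 0.16), and Pdlim1 (-2.17) and Vim (-1.25) fell. Tubulin genes are near copies of each other, so counting could have divided reads among them.

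Xenobiotic and cell cycle genes were mostly not called. Of 38 xenobiotic and oxidative stress genes 4 rose and 4 fell. Cyp1a1, the target of the aryl hydrocarbon receptor, was at 5.47, 38.5 and 23.6 CPM in control and 174, 3618 and 196 CPM in HSC-KO ECs (log2 fold change 5.88 ± 1.46, adjusted p = 0.027 by edgeR), a rise carried by replicate 2, and without that library the log2 fold change was 3.04. The aldo-keto reductase gene Akr1b8 fell from 188, 187 and 165 to 35.5, 4.33 and 2.98 CPM (-3.65 ± 0.91) and Cyp4b1 (-2.13) fell. Of 70 cell cycle genes 3 rose and 3 fell (median 0.19). The falls numbered 1 without HSC-KO replicate 3 or control replicate 1 or 2, and the median was -0.04 without HSC-KO replicate 2. Cdkn1a, the cyclin-dependent kinase inhibitor p21, rose from 203, 137 and 313 to 779, 1476 and 771 CPM (2.21 ± 0.38) and Cenpa, a centromeric histone gene, fell from 78.6, 106 and 106 to 23.9, 22.6 and 18.7 CPM. Mki67 and Top2a, present only in cycling cells, were at 11, 9.72 and 5.62 CPM in control and 11.5, 13.9 and 9.13 CPM in HSC-KO ECs and 35.8, 30.3 and 18.3 CPM in control and 32.1, 56.8 and 26.3 CPM in HSC-KO ECs, neither called.

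The HSC-KO libraries were not alike in how far they had moved. Of 627 DEGs that fell from a control mean of at least 10 CPM, HSC-KO replicate 1 was the library nearest to the controls in 504, replicate 2 in 74 and replicate 3 in 49. The median level left was 40.1%, 27.5% and 28.1% of the control mean in replicates 1, 2 and 3. Of 639 DEGs that rose to at least 10 CPM, replicate 1 was nearest in 403, replicate 2 in 162 and replicate 3 in 74, with median folds of 3.62, 4.44 and 4.45. Without replicate 1, 2496 rather than 2198 genes were DEGs.

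Genes differed in how much replicate 1 kept. Oit3, Dpp4 and Plxnc1, all abundant in control ECs, stood at 7.24%, 0.674% and 0.664%, 8.16%, 0.821% and 0.665% and 6.59%, 0.959% and 0.573% of the control mean in HSC-KO replicates 1, 2 and 3, and Gata4 at 7.42%, 1.24% and 1.22%. In these genes replicate 1 kept several times as much as replicate 2. Aass stood at 0.262%, 0.285% and 0.322%, Itga8 at 1.19%, 1.21% and 0.574% and Lyve1 at 1.35%, 0.766% and 0.953%, so that replicate 1 was no higher than replicate 2 in Aass and Itga8. The 10 DEGs in which replicate 1 lay closest to the mean log2 CPM of the controls follow, a choice that favors weak DEGs. Snx2 (224, 236 and 228 to 163, 77.3 and 68.4 CPM), Ap2s1, Pabpc4l and Marcksl1 fell, and Odc1 (26.9, 24.6 and 33.6 to 39.7, 152 and 99 CPM), Mllt6, Ift122, Rbks, Susd4 and 1110038B12Rik rose. Oit3 and Dpp4 were chosen after their values were seen.

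**Figure D5:**
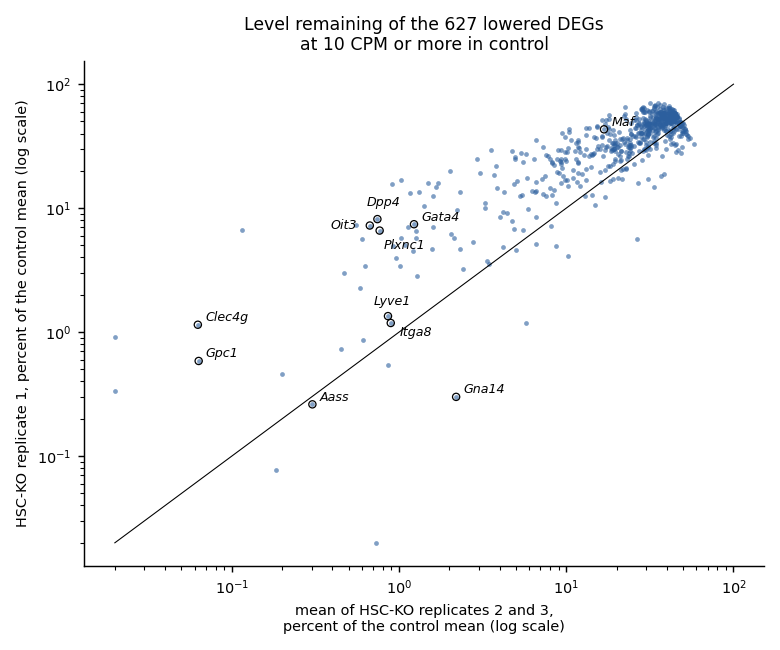
Level left in HSC-KO replicate 1 (vertical axis) against the mean of replicates 2 and 3 (horizontal axis), each as a percent of the control mean on a log scale, for the 627 DEGs that fell from a control mean of at least 10 CPM, 1 point per gene, with values under 0.02% drawn at 0.02% and the line at equal levels. Most points lie above the line, Oit3, Dpp4, Plxnc1 and Gata4 far above it, and Aass, Itga8 and Lyve1 near it.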

How the data were processed

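RNA of sorted hepatic ECs was sequenced in 6 libraries, 3 of each genotype. RNA was isolated with an RNeasy plus Mini kit, and the labels and the methods of the study name different library kits. Per the labels and methods, the authors aligned reads to mm10 (GRCm38) with HISAT2 and counted them per gene with featureCounts, after FastQC, and tested with DESeq2, versions not given in the sources used here. The deposited values are raw counts per gene in 1 table with 48820 entries, of which 483 share a symbol (237 symbols, each entry kept on its own) and 27 carry a date in place of a symbol. No entry lacked a gene and 0 columns lacked a sample. Gene annotation of the counts and use of strand are not stated, so reads of genes that overlap cannot be told apart, and overlap is remarked on where a named gene shares exonic bases on the same strand (GENCODE vM21). Of the genes named in the text, 70 share exonic bases with a gene on the opposite strand, Eng, Gpc1, Ackr4, Irf7, Ciita and Pltp among them. A table of macrophages from Smad4-deleted mice was not used here.

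Tests used edgeR 4.0.16 (limma 3.58.1, R 4.3.3) with TMM scaling, filterByExpr (minimum count 10, minimum total 15), the quasi-likelihood test and Benjamini-Hochberg adjustment over all 16053 genes tested, with calls at adjusted p under 0.05 and absolute log2 fold change over 1. Depth was 66694659 to 87879751 counts. Intervals (95%) and the floor of 3 counts per library cover counting error only. Members, gene lists and rules were chosen with earlier results of these data known. Named genes were the BMP and TGF-beta list, the 15 largest rises and falls (mean log2 CPM of at least 3, groups apart), in each list up to 8 rises and 8 falls among DEGs with uncalled members of the same role, and the 10 DEGs in which HSC-KO replicate 1 lay closest to the controls; a few others are said to have been chosen after their values were seen, and some genes that the rule names are not reported here. The share of a gene that macrophage RNA would supply in ECs was its mean CPM in the sorted macrophage libraries of the same genotype, times the level of marker genes in ECs relative to those libraries (Clec4f, Vsig4, Cd5l and Timd4 for controls, C1qa, C1qb, C1qc and Csf1r for HSC-KO and, as an alternative added after seeing the data, for controls), over its mean CPM in ECs. Promoter windows came from RefSeq (GRCm38.p6). Alternatives were DESeq2 1.42.0, other scalings, filters and thresholds, each library left out, a replicate block and Xist as a covariate, and, added after seeing the data, overlapping genes, macrophage-rich genes or Dnase1l3 left out. On simulated counts for the 16053 genes of this comparison, 66 or 67 genes, none of low count, were changed at each fold. Of these, 23.9% of genes changed 2-fold, 77.6% changed 4-fold and 89.4% changed 8-fold passed the adjusted p, and 9 unchanged genes were called. The data held far more DEGs and many genes near 0, so these rates need not hold for them.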

Additional observations from a re-analysis of the deposited data

How the results depend on the processing

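By edgeR's quasi-likelihood test 2198 genes were called, 1233 higher and 965 lower in HSC-KO ECs (5234 genes at an unadjusted p under 0.05). Testing against a log2 fold change of 1 left 1096 genes, 701 higher and 395 lower. Leaving out 1 library gave 1664 (without HSC-KO replicate 3) to 2496 genes (without HSC-KO replicate 1), with 945 to 1305 higher and 719 to 1191 lower. The other settings stayed within 1.5 times of these counts: DESeq2 called 2557, edgeR with DESeq2's size factors 2205, library size alone 2400 (1739 higher, 661 lower), no filter on low counts 2132, 1918 passed with a minimum mean CPM of 1, and Xist as a covariate gave 2203. Of 3 alternatives added after seeing the data, leaving out genes whose exons overlap on the same strand gave 2072, leaving out genes over 20 times higher in macrophages 2006, and library size alone without Dnase1l3 2178.

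With the replicate number as a block 2054 genes were called, 1138 higher and 916 lower. Deviations of same-numbered libraries correlated at 0.103, 0.117 and 0.0334, the last under 0.1, so the numbers were not taken to pair the libraries.

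Counts of several gene lists moved by more than 1.5 times. Testing against a log2 fold change of 1 left 9 falls of 14 for BMP and TGF-beta, 12 of 21 for scavenger receptors and clathrin, 6 of 16 for the lysosome, 2 of 7 for transcription factors, 3 of 7 for chemokines, 5 of 10 for Wnt, 6 of 10 for growth factors, 3 of 6 for guidance, 1 of 5 for the cytoskeleton, 1 of 4 for tone and shear, 2 of 4 each for lipids and xenobiotics, 1 of 3 each for coagulation and the cell cycle and 0 of 3 for cholesterol. It left 14 rises of 25 for interferon, 7 of 12 for MHC, 9 of 16 for transcription factors, 8 of 14 for guidance, 3 of 11 for tone and shear, 5 of 8 for coagulation, 3 of 5 each for Wnt and interstitial matrix, 1 of 4 for xenobiotics and 1 of 3 for the cell cycle. With library size alone the rises numbered 17 rather than 11 for tone and shear, 8 rather than 4 for chemokines, 8 rather than 5 for junctions, 6 rather than 3 for the cell cycle, 6 rather than 2 for immediate early genes, 5 rather than 3 for Notch and 3 rather than 1 for YAP and TAZ targets, and the falls 7 rather than 16 for the lysosome, 2 rather than 5 for the cytoskeleton, 2 rather than 4 for lipids and 1 rather than 3 for cholesterol. DESeq2 gave 7 rises rather than 4 for chemokines and 4 rather than 2 for immediate early genes, Xist as a covariate 5 for the latter, and a minimum mean CPM of 1 left 3 rises of 5 for Wnt. Counts of 1 or 2 calls in other lists moved by 1 or 2 under some of these settings.

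Of 311 genes named in the text and fitted, 261 were called, and 209 kept their direction and their side of the threshold in every alternative. The 261 called genes never changed direction. Testing against a log2 fold change of 1 ended 63 calls, and leaving out 1 library ended 8 to 35, with fewer libraries in the fit. The replicate block ended 20 calls, Xist as a covariate 14, library size alone 10, and library size alone without Dnase1l3 and no filter on low counts 3 and 3. Genes that were not called became DEGs without HSC-KO replicate 1 (7), by DESeq2 (5), with the block (4) and with library size alone (3), and 1 under each of a few other settings. The cause of each change was not tested. Genes that were not called changed sign as follows. With Xist as a covariate the log2 fold change was -3.45 for Kctd12, 0.093 for Klf2 and -0.0085 for Smad4. With library size alone the log2 fold change was 0.15 for Ap2m1, 0.30 for Axin2, 0.0016 for Bmpr2, 0.098 for Col1a2, 0.24 for Dll4, 0.15 for Klf2, 0.097 for Mitf, 0.17 for Picalm, 0.15 for Prox1, 0.20 for Rab7 and 0.15 for Vps51. With the replicate block the log2 fold change was 0.082 for Axin2, 0.21 for Col1a2 and -0.52 for Kctd12. Axin2 was at 0.010 by DESeq2, 0.010 with DESeq2's size factors, 0.044 with library size alone and no Dnase1l3 and 0.015 with a minimum mean CPM of 1. With 1 library left out, log2 fold changes ranged from -0.36 to 0.35 for Axin2, from -0.0020 to 0.15 for Cdh5, from -0.14 to 1.23 for Col1a1, from -0.63 to 0.56 for Col1a2, from -0.30 to 0.22 for Dll4, from -1.07 to 0.031 for Gm20716, from -0.086 to 0.46 for Id1, from -0.36 to 0.25 for Klf2, from -0.51 to 0.14 for Mitf, from -0.39 to 0.25 for Prox1, from -1.02 to 0.16 for Reln, from -0.051 to 0.093 for Smad4, from -0.013 to 0.43 for Tfeb and from -0.047 to 0.67 for Vwf. A count of 0 in every library of a group allows up to 3 counts, and 3 libraries a group limit the precision of every value.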

Other observations

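Several metabolic and response lists had a share of calls near the 13.7% of all genes tested. Of 23 glycolysis genes 2 rose and 1 fell. Hk2, a hexokinase of tissues other than liver parenchyma, fell from 5.32, 3.2 and 4.62 to 0.053, 0 and 0.208 CPM (-5.61 ± 0.91), while the glucose transporter gene Slc2a1 was at 3.64, 5.29 and 3.61 CPM in control and 11.9, 15.8 and 13.8 CPM in HSC-KO ECs (1.73 ± 0.22). Slc2a1 and Ddit4 (from 17.4, 29.4 and 63.4 to 110.3, 171 and 111 CPM) were also the only rises among 19 hypoxia targets, whose median was -0.39. Of 23 cholesterol synthesis genes none rose and 3 fell (median -0.31), among them Msmo1 (-1.60) and Tm7sf2 (-1.60, exons overlapping Vps51). Among 22 targets of the mechanosensitive factors YAP and TAZ, Cyr61 (1.58) rose and Nuak2 (-1.83) and Amotl2 (-1.03) fell. In these lists, each of at most 3 calls in a direction, leaving out 1 library moved counts by as many as 2.

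Hox genes, which keep positional identity, gave 2 rises and 1 fall in 13. Of the rises, Hoxa7 was at 0.134, 0 and 0 CPM in control and 1.53, 6.14 and 8.72 CPM in HSC-KO ECs (6.77 ± 1.20), and Hoxd8 went from 0.244, 0.501 and 0.177 to 0.891, 2.74 and 1.31 CPM. Of 28 immediate early and stress genes, whose levels respond to tissue handling, 2 rose and 1 fell (median 0.51, with 6 rises with library size alone and 5 with Xist as a covariate), among them the chaperone gene Hspb1 from 14.3, 8.78 and 13.7 to 144, 171 and 157 CPM (3.69 ± 0.22). Leaving out 1 library moved the Hox and immediate early counts by 1 at most. The lymphatic EC markers divided: Pdpn (2.39), Ccl21a and Mmrn1 (2.57) rose, Flt4 and Lyve1 fell, and Prox1 was not called.

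A few entries were at 0 counts in some libraries of a group and well above it in others of the same group. Kctd12, whose exons overlap Mir5130, was at 40.3, 36 and 40.6 CPM in control and 79.1, 0 and 85.3 CPM in HSC-KO ECs. Adnp was at 0, 0 and 0 CPM in control and 90.6, 0.0698 and 0 CPM in HSC-KO ECs, and Gm20716, whose exons overlap it on the same strand, at 106, 92.6 and 87.9 CPM in control and 0, 104 and 90.8 CPM in HSC-KO ECs, so that the library with Adnp counts was the one without Gm20716 counts. Kctd12 and Gm20716 were not called, and Adnp did not pass the filter on low counts.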
